A study of Homo sapiens with 23 samples.

Results

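The RNA response to SVA-directed dCas9-KRAB was measured in 6 RNA-seq libraries out of the 23 samples of the series, chosen by their labels: 3 libraries of SCi-NCCIT cells without doxycycline and 3 of the same cells with doxycycline. NCCIT is a human embryonal carcinoma line with pluripotent features. SCi-NCCITs are NCCIT cells that carry, on piggyBac transposons, a tetracycline-inducible dCas9-KRAB and a pair of constitutively expressed single guide RNAs directed at SVAs, the SINE-VNTR-Alu retrotransposons. Both groups carried all of these elements and were kept in puromycin and geneticin, and the treated group received doxycycline at 2 µg/mL for 72 hours. The paper states that the guides also target sequences of LTR5Hs, another family of transposable elements. Stable clones were isolated after the dCas9-KRAB step, so the cells may descend from few founders. Neither doxycycline on cells without guides nor a non-targeting guide is among the 6 libraries. Induction of dCas9-KRAB, its binding to SVAs, its binding to LTR5Hs and doxycycline itself therefore cannot be told apart here. Nothing in the labels says that the 3 libraries of a group came from separate cultures, and p-values then measure only the spread between these libraries.

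KRAB is a domain of zinc finger proteins that recruits the co-repressor TRIM28 and, through it, the enzymes that write H3K9me3, a histone mark of silent chromatin. Fused to catalytically dead Cas9 it represses the loci to which the guide RNAs direct it, and genes whose enhancers or promoters lie there fall first. Other genes can then change in turn, and doxycycline, an antibiotic that inhibits mitochondrial protein synthesis, can act on cells by itself. The comparison therefore asks which genes, gene classes and transcripts differ between treated and untreated cells, wherever they lie.

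The KRAB domain used in dCas9-KRAB fusions is commonly that of ZNF10 (KOX1), and the sequence with the largest change in the files was a short ZNF10 transcript, ZNF10-205, of 472 bases. It lies on the plus strand of chromosome 12 (GRCh37 chr12:133707197-133728452), and its 218 coding bases all lie within coding exons of the full-length ZNF10-201, which has 1719 coding bases in all. These 218 bases are shown because the treated libraries put nearly all ZNF10 reads on the transcript that ends with them. The capitals mark the second coding exon (chr12:133727614-133727740), and the flanking lower case letters are the first (chr12:133721079-133721111) and the third (chr12:133728395-133728452), from the GENCODE transcript set of that build.
ZNF10-205 coding part: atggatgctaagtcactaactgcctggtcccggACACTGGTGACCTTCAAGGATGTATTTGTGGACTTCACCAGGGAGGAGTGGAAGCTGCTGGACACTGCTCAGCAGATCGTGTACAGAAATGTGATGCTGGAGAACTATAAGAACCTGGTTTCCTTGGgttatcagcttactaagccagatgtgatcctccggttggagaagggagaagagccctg

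ZNF10 was counted at 10.0, 11.8 and 10.7 CPM, a count scaled to the size of its library, in the untreated libraries and at 362, 374 and 459 CPM in the treated ones. The groups lie far apart, and the fold change was 36.5 (log2 fold change 5.19 ± 0.12 (SE), edgeR quasi-likelihood test, adjusted p = 5.59e-08). ZNF10-205 held 3.21%, 0.779% and 1.24% of the ZNF10 counts without doxycycline and 98.0%, 97.6% and 98.3% with it. In estimated counts, it went from 4.72, 2.85 and 5.47 to 15947, 17407 and 21192. The full-length ZNF10-201 had 92.5, 241 and 317 estimated counts without and 206, 277 and 259 with doxycycline, so its share fell from 66.9% ± 4.56 to 1.34% ± 0.185 (SD, n = 3) while its counts overlapped. Reads of an expressed KRAB fusion and of the cell's own ZNF10 cannot be told apart in these files.

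The treated and untreated libraries separated on the first principal component, which held 56.2% of the variance, and the untreated replicate 1 stood apart on the second. That library was also the shallowest, with 14683468 estimated counts on genes against 31905915 and 43443469 in the other untreated libraries and 44680610 to 47862394 in the treated ones. Of the 17 markers of embryonal carcinoma and pluripotency, all passed the filter on low counts, and POU5F1 (OCT4), SOX2 and LIN28A were at 170 to 240, 493 to 673 and 734 to 841 CPM over the 6 libraries. Of markers of other cell types, the 13 of endoderm summed to 2.69 to 4.51 CPM (scaled to counts on genes, without TMM) without and 4.69 to 6.09 with doxycycline, with 9 of them under 0.5 CPM in each library, among them AFP, SOX17 and FOXA1. The 13 of mesoderm summed to 20.7 to 24.1 and 20.1 to 22.5 CPM, with MSGN1 at 0 in each library and TBXT under 0.5 CPM. Other lists had higher sums in untreated cells, trophoblast markers 860 to 956 CPM, neural markers 500 to 564 CPM and fibroblast markers 1942 to 2159 CPM. These sums do not stand for every member. Of 15 trophoblast markers 6 were under 0.5 CPM in each library, among them CGA, GCM1 and PSG1, as were 2 of 14 neural markers.

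Of 16371 genes tested, 2858 (17.5%) differed between treated and untreated cells, 1469 of them (8.97%) higher and 1389 (8.48%) lower with doxycycline, by edgeR's quasi-likelihood test at a Benjamini-Hochberg adjusted p under 0.05. Most of these changes were small. The called genes that rose had a median fold of 1.28 and those that fell a median fold of 0.757, and 1764 of the 2858, or 61.7%, changed by 0.2 to 0.5 on the log2 scale. Another 618 changed by 0.5 to 1, 274 by 1 to 2 and 84 by more than 2. Among the 84, 48 fell and 36 rose.

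The largest rises in protein-coding genes averaging 5 CPM or more whose groups did not overlap, after ZNF10, were in SFXN3, CSF3 and FOXD1. SFXN3, a mitochondrial serine transporter of the sideroflexin family, went from 0.682, 0.252 and 0.488 CPM to 23.2, 6.03 and 18.5 CPM, a log2 fold change of 5.17 ± 0.60 (SE, adjusted p = 0.000586). The treated libraries lay far above the untreated ones but spread over a wide range themselves. CSF3, the granulocyte colony-stimulating factor, went from 0.818, 0.820 and 0.720 to 10.4, 9.09 and 9.78 CPM, 12.5-fold. FOXD1, a forkhead transcription factor, rose 10.9-fold, from 2.40 to 2.62 CPM up to 25.4 to 29.8 CPM, and LOXL4, an enzyme that crosslinks collagen, rose 10.1-fold. The matrix gene OLFML2A rose 8.96-fold, the sodium pump subunit ATP1B2 6.92-fold and DTX4, a ubiquitin ligase of the NOTCH pathway, 4.82-fold. In each of these genes the lowest treated library stood above the highest untreated one, which the rule of selection required, so it is no separate result. Among all 16371 genes tested, the groups did not overlap in 6051.

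The largest falls were in CILP, CHI3L2 and SPTB. CILP, a cartilage matrix protein, fell from 38.9, 47.6 and 30.9 CPM to 1.78, 1.53 and 1.45 CPM, a log2 fold change of -4.62 ± 0.18 (SE, adjusted p = 8.55e-07). CHI3L2, a chitinase-like protein, fell from 14.8 to 17.0 CPM down to 1.38 to 2.22 CPM. SPTB (spectrin beta) and PIFO (a protein of the primary cilium) each fell by 2.69 on the log2 scale, MMP24 (a membrane-bound metalloproteinase) fell by 2.20, IGFBP5 (which binds insulin-like growth factors) by 2.12 and SLITRK2 (a synaptic membrane protein) fell from 73.9, 93.9 and 73.5 CPM to 18.3, 18.9 and 18.9 CPM. SPTB was uneven among treated libraries, at 2.67, 0.628 and 2.64 CPM. An unnamed coding gene, ENSG00000283809 (GRCh37 chr22:18893751-18935245), fell from 1435, 1503 and 1330 to 281, 267 and 248 CPM. It overlaps DGCR6 on its own strand and PRODH on the other, and DGCR6 rose by 0.34 on the log2 scale while PRODH, a mitochondrial proline dehydrogenase, fell by 1.98, both of which were named for this overlap after their values were seen.

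Abundant genes moved as well. ENO1, the glycolytic enolase, fell from 7338, 7141 and 7037 CPM to 3273, 3010 and 2815 CPM, by 1.24 ± 0.06 on the log2 scale (adjusted p = 3.46e-06). In TPM, which also divides by transcript length, the largest rises included the mitochondrially encoded MT-ATP8, MT-ATP6, MT-CO3, MT-ND3 and MT-ND4L. The 6 largest falls were in ENO1, the translation elongation factor EEF1A1, the chromatin protein PTMA, ENSG00000283809, the RNA-binding protein HNRNPA1 and the nucleolar protein NPM1. PTMA fell from 1956, 1990 and 1845 to 1185, 987 and 1076 CPM. Several of these genes, EEF1A1, PTMA, HNRNPA1 and NPM1 among them, have processed pseudogenes that can share reads with them, and how the counting split those reads was not tested.

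The response was then read by 54 gene lists for the pathways and cell types of this system, which hold 1285 tested genes, 29 of them in more than 1 list. Of these, 318 were called, and the other 2540 called genes, 88.9% of all, lie in no list. Each count below stands against the 8.97% of all genes that rose and the 8.48% that fell, and against a median log2 fold change over all genes of -0.0025.

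Genes of mitochondrial respiration rose. Of the 13 mRNAs encoded in the mitochondrial genome, 10 rose and 3 did not pass the test, with a median log2 fold change of 0.39 over the 13. MT-CYB, the cytochrome b subunit of complex III, went from 1436, 1836 and 1633 CPM to 2984, 3633 and 3083 CPM, 1.98-fold (log2 fold change 0.98 ± 0.10 (SE), adjusted p = 0.000287). MT-ATP6 and MT-ATP8, both subunits of ATP synthase, rose 1.70-fold and 1.68-fold. MT-CO1, the catalytic subunit of complex IV and the most abundant of the set, was at 12210 to 15542 CPM without and 14241 to 16358 CPM with doxycycline, a log2 fold change of 0.10 ± 0.09 that did not pass the test. MT-CO3 rose 1.31-fold. Without the shallow untreated replicate 1, 7 of the 13 were called. The libraries were enriched for polyadenylated RNA, and mitochondrial mRNAs carry short tails.

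The nuclear genes of the respiratory chain moved the same way with smaller steps. Of 80 nuclear subunits tested, 30 rose and the other 50 did not pass the test, and the median was 0.21. UQCRFS1, the Rieske subunit of complex III, rose from 73.4, 74.7 and 79.2 to 111, 127 and 104 CPM (1.51-fold), UQCRQ of the same complex rose 1.41-fold, and NDUFA1 of complex I 1.37-fold. The abundant ATP5F1B, a catalytic subunit of ATP synthase, rose 1.15-fold. It lost its call without a filter, with length-scaled counts and in most fits that left out a library. ATP5F1A, another subunit of ATP synthase, was at 598 to 617 without and 547 to 634 CPM with doxycycline. Of 49 assembly factors, 11 rose, COX17 (a copper chaperone of complex IV), COX14 and SDHAF4 most, at 1.58-fold, 1.46-fold and 1.44-fold, and NDUFAF7 fell. Of 83 mitochondrial ribosomal proteins, 16 rose and MRPL15 fell, with MRPS6 at 1.57-fold and MRPL33 at 1.36-fold. When the shallow untreated library was left out, 25 of the 83 rose, and 1685 of all 16633 genes tested did. With length-scaled counts 8 of the 83 rose, and 928 of all 16429 genes did. Of 18 enzymes of the tricarboxylic acid cycle, 7 rose, among them SUCLG2 (1.38-fold), the succinate dehydrogenase subunit SDHB (1.33-fold) and OGDH (1.26-fold), and the abundant citrate synthase CS was at 419 to 459 and 410 to 420 CPM.

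In 3 further mitochondrial lists most genes did not pass the test, and the medians were 0.02, 0.0017 and 0.05. Of 23 factors for mitochondrial RNA and translation, 3 were called and all 3 fell. These were LRPPRC, which stabilises mitochondrial mRNAs (log2 fold change -0.29 ± 0.06), the transcription factor TFAM (-0.21 ± 0.05) and TFB1M (-0.24 ± 0.06). Of 16 mitochondrial chaperones and proteases, HSPD1, the HSP60 chaperonin, fell from 884, 910 and 912 CPM to 647, 665 and 627 CPM, CLPX and GRPEL2 fell as well, and the import subunit TIMM17A rose. Of 17 mitochondrial aminoacyl-tRNA synthetases, which charge the tRNAs of the organelle, MARS2 fell from 55.9, 59.4 and 60.3 CPM to 28.3, 28.5 and 26.8 CPM and AARS2 from 62.9, 60.6 and 51.1 CPM to 32.5, 32.1 and 33.9 CPM, log2 fold changes of -1.07 ± 0.06 and -0.82 ± 0.08. WARS2 fell by less (-0.26 ± 0.06) and TARS2 rose (0.18 ± 0.05).

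Part of the integrated stress response genes fell. This pathway, through the transcription factor ATF4, raises amino acid synthesis and transport when translation is curbed. Of 41 genes tested, 17 fell and CEBPD rose, with a median of -0.19. CHAC1, which degrades glutathione, went from 72.1, 55.2 and 59.3 CPM to 47.9, 33.0 and 29.2 CPM, and the cystine transporter SLC7A11 from 218, 255 and 262 CPM to 129, 146 and 164 CPM, both a log2 fold change of -0.75. DDIT4, an inhibitor of mTOR signalling, was called at -0.54 ± 0.16, an adjusted p of 0.0498, although its groups overlap. ATF4 itself was at 497 to 551 CPM without and 493 to 550 CPM with doxycycline, and PHGDH, the most abundant of the list, at 990 to 1199 and 958 to 1062 CPM. The level of ATF4 mRNA thus overlapped between groups, and ATF4 protein was not measured here. Of 23 cytosolic aminoacyl-tRNA synthetases, 9 fell, WARS1, FARSB and IARS1 most, with log2 fold changes of -0.35, -0.27 and -0.27. Of 18 serine and one-carbon enzymes, 6 fell, among them GLDC (-0.44 ± 0.06), and SFXN1 and AMT rose.

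Chaperones of the endoplasmic reticulum rose. This list holds targets of the unfolded protein response, which is induced when proteins misfold in that compartment. Of 22 tested, 10 rose and 12 did not pass the test, with a median of 0.16. MANF rose from 40.9, 41.7 and 45.5 CPM to 66.3, 58.0 and 57.8 CPM and HSPA5 (BiP), the main chaperone of the compartment, from 842, 936 and 1045 CPM to 1185, 1195 and 1296 CPM, log2 fold changes of 0.50 ± 0.07 and 0.38 ± 0.08. DNAJB9, a co-chaperone of HSPA5, rose by 0.43 ± 0.11. HSP90B1, the most abundant, was at 1314 to 1608 and 1590 to 1742 CPM and did not pass the test. Of 16 cytosolic heat shock proteins, 7 rose, HSPB1, DNAJB1 and DNAJA1 most, at 1.38-fold, 1.36-fold and 1.23-fold, while the constitutive HSPA8 and HSP90AB1 did not pass the test.

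Many genes of DNA replication fell. Of 36 genes of the G1/S transition and of replication, 19 fell and 17 did not pass the test, and the median was -0.26. MCM4, a subunit of the replicative helicase, fell from 135, 127 and 132 CPM to 47.9, 75.3 and 45 CPM (log2 fold change -1.23 ± 0.17, adjusted p = 0.00138). E2F2, a transcription factor of the G1/S programme, fell from 17.0, 14.5 and 13.6 to 6.46, 6.57 and 6.70 CPM (-1.18 ± 0.10), and CDT1, which licenses replication origins, fell from 154, 126 and 128 to 105, 96.1 and 95.4 CPM (-0.46 ± 0.08). MCM3 and MCM7, the most abundant of the list, fell by 0.26 and by 0.36 on the log2 scale. Of 39 replication-dependent histone genes, 9 fell and H2BC15 rose, with a median of -0.34. H4C15 and H4C14, both coding for histone H4, fell from 41.5 to 58.4 and 41.1 to 72.0 CPM down to 23.4 to 27.5 and 27.4 to 36.9 CPM. These histone mRNAs end in a stem-loop in place of a poly(A) tail, so the polyadenylated fraction counts only part of them, and copies of near-identical sequence share reads.

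Of 37 genes of G2/M and mitosis, 3 rose and 3 fell. CDC20, which activates the anaphase-promoting complex, rose from 352, 327 and 341 to 479, 445 and 431 CPM, PTTG1 and NEK2 rose by 0.31 and 0.19 on the log2 scale, and HMMR, BUB1B and KIF2C fell, with log2 fold changes of -0.29, -0.22 and -0.21. Of 42 DNA repair genes, 5 fell and 3 rose, XRCC2 (-0.40 ± 0.08) and NEIL3 (0.39 ± 0.07) most. Of 22 targets of p53, AEN and SESN2 were called, and both fell. ABCC2, an efflux pump placed in the list of drug and metal response genes, fell from 2.45, 2.30 and 1.74 to 0.200, 0.105 and 0.213 CPM. In the same list the metallothioneins MT1E, MT2A and MT1X, which bind zinc and other metals, rose 2.95-fold, 1.93-fold and 1.32-fold.

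**Figure D1:**
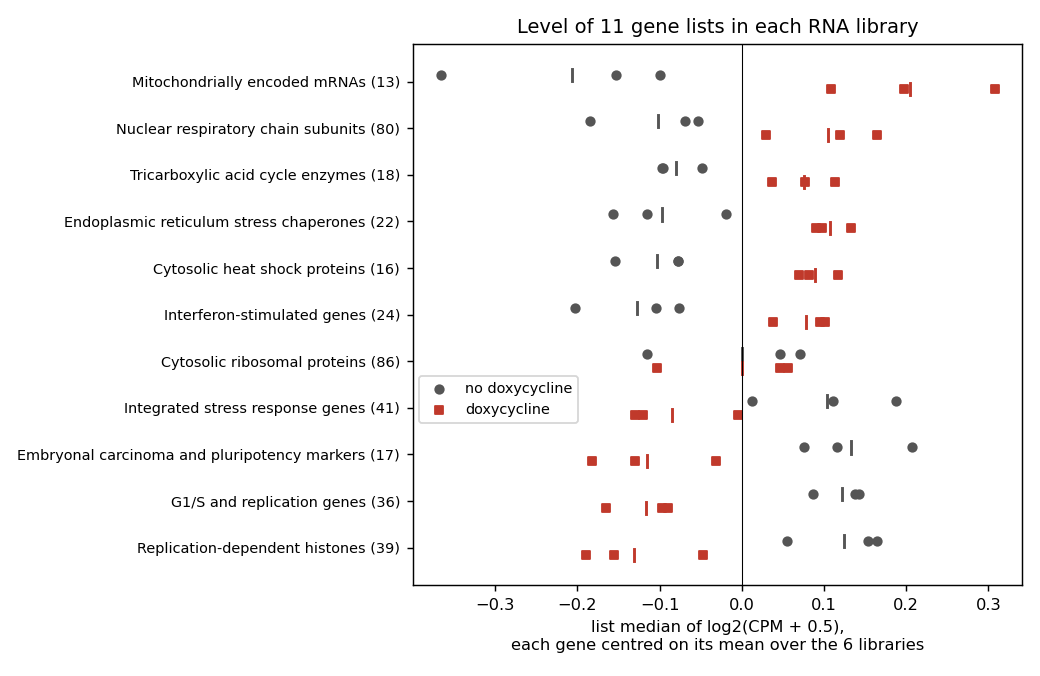
For 11 gene lists, each point is 1 library: the median over the list of log2(CPM + 0.5) after each gene is centred on its mean over the 6 libraries. Grey circles are untreated and red squares treated libraries, and vertical ticks mark group means. In 10 of the lists the treated libraries lie wholly on one side of the untreated ones, and in the cytosolic ribosomal proteins they overlap.

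Genes of pluripotency fell in part. Of the 17 markers tested, 7 fell and 10 did not pass the test, with a median of -0.22. TDGF1 (CRIPTO), the co-receptor of NODAL, fell from 201, 187 and 192 CPM to 95.0, 87.1 and 82.3 CPM (log2 fold change -1.13 ± 0.07, adjusted p = 8.32e-06). L1TD1, an RNA-binding protein of pluripotent cells, fell by 0.62 and the de novo DNA methyltransferase DNMT3B by 0.60 on the log2 scale. POU5F1, at 240, 177 and 171 CPM without and 199, 170 and 170 CPM with doxycycline, and SOX2 did not pass the test, nor did LIN28A, the most abundant of the list. The summed level of the 17 was 4050 to 4391 CPM without and 3229 to 3496 CPM with doxycycline.

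Among markers of other cell types, those called in the neural list all rose and those called in the germ cell list all fell. Of 12 neural markers tested, 4 rose (33.3%, against 8.97% of all genes), with a median of 0.25: NEUROG2 (0.98 ± 0.28), the intermediate filament NES (0.47 ± 0.10), TUBB3 (0.38 ± 0.09) and OTX2 (0.23 ± 0.07). DESeq2 called 3 of the 12 and not NEUROG2, which was at 0.302 to 0.477 and 0.649 to 0.866 CPM and also lost its call without a filter, with the replicate block, with length-scaled counts and in 5 of the 6 fits that left out a library. OTX2 lost its call with length-scaled counts, where 2 of the 12 rose, and likewise in 5 of the 6 fits that left out a library. NES held most of the list, at 384 to 437 CPM without and 494 to 658 CPM with doxycycline. GATA6, the 1 endoderm marker called, rose from 1.16, 0.662 and 1.07 to 2.64, 2.72 and 2.42 CPM. Of 9 mesoderm markers KDR fell and MIXL1 rose, although MIXL1 was not called with DESeq2. Of 10 trophoblast markers CYP19A1 rose, at under 0.5 CPM in each library and with no adjusted p from DESeq2, and ERVW-1, the envelope gene of an endogenous retrovirus that codes for syncytin, fell from 7.57 to 8.83 CPM down to 5.49 to 5.78 CPM. Of 11 germ cell genes MAEL, SYCP1 and TFAP2C fell (27.3%, against 8.48% of all genes), with a median of -0.38, and DESeq2 called 2 genes of the list. MAEL was not called with DESeq2 and lost its call in several fits that left out a library. SYCP1 lost its call with length-scaled counts, with the offsets for GC content and length described below and in 5 of the 6 fits that left out a library. Of 11 fibroblast markers THY1 rose 1.84-fold and FN1 and POSTN fell. In these bulk libraries fewer cells of a type and less RNA per cell cannot be told apart, and whether the cells differ in state between the groups was not tested.

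Signalling genes moved in both directions. In the WNT pathway, 6 of 21 genes fell and 2 rose. The ligand WNT5A fell from 13.9, 12.9 and 12.4 to 7.73, 6.74 and 7.34 CPM, the ligand WNT8A and the transcription factor TCF7 fell by 0.63 and by 0.45 on the log2 scale, and CTNNB1 (beta-catenin), the pathway's effector, fell from 590, 608 and 603 CPM to 461, 514 and 478 CPM. The R-spondin receptor LGR4 rose 1.55-fold and the receptor FZD2 1.21-fold. In the NODAL and TGF-beta list of 21, the ligand GDF3, the receptor TGFBR1 and TDGF1 fell, and the target ID3 and the ligand TGFB1 rose, 1.45-fold and 1.41-fold. Of 26 adhesion and matrix genes, 7 fell, the integrin ITGAX, CLDN4 and FN1 most, and LAMB1 and SPARC rose. Of 10 NF-kB targets, IL6 fell from 1.23, 0.915 and 0.999 to 0.289, 0.251 and 0.213 CPM, NFKB2 and TNFAIP3 fell, and ICAM1 and NFKB1 rose.

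Some interferon-stimulated genes rose. Of 24 tested, 5 rose (20.8%, against 8.97% of all genes) and 19 did not pass the test, with a median of 0.37. IFI6 rose from 9.27, 8.04 and 9.96 to 24.7, 23.2 and 19.6 CPM (log2 fold change 1.30 ± 0.11, adjusted p = 0.000104), ISG15 from 3.31 to 3.82 CPM up to 5.04 to 6.53 CPM, and BST2 (tetherin) from 138, 109 and 123 to 187, 171 and 147 CPM. IFI44L was at 0.410 to 0.557 and 0.733 to 1.04 CPM, an adjusted p of 0.0492. DESeq2 called 3 genes of this list.

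The translation machinery split by class. Cytosolic ribosomal proteins stayed near the centre of the response: of 86 tested, 4 were called (17.5% of all genes were), RPL3L, RPL36AL and RPS27L higher and RPL39L lower, with a median of 0.0011. Of 56 initiation and elongation factors, 11 fell and 2 rose, among them EIF3C, EIF4B and EIF2S3 with log2 fold changes of -0.51, -0.43 and -0.38 and the abundant EEF1A1 and EEF2 with -0.21 and -0.28. Of 32 factors of ribosome biogenesis, 5 fell, among them NOP58 (-0.31 ± 0.05), DDX21 (-0.28 ± 0.06) and NCL (-0.25 ± 0.06). Of 21 splicing factors that carry poison exons, 6 fell, SRSF10 from 322, 346 and 338 to 221, 237 and 245 CPM and SRSF6 and SRSF1 with log2 fold changes of -0.33 and -0.26.

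In lipid and sugar metabolism, 7 of 26 cholesterol synthesis genes rose, TM7SF2, MVD and FDPS by 1.43-fold, 1.29-fold and 1.27-fold, and the abundant HMGCS1 was at 455 to 653 and 601 to 628 CPM. FASN, the fatty acid synthase, fell from 2118, 2205 and 1939 to 1615, 1460 and 1691 CPM. Of 22 glycolytic enzymes, 3 fell and 4 rose. Besides ENO1, its neuronal paralogue ENO2 and TPI1 fell by 0.29 and by 0.23 on the log2 scale, and PKM, the pyruvate kinase, rose from 1287, 1207 and 1219 to 1848, 1852 and 1827 CPM. GAPDH was at 4401 to 4729 CPM without and 4077 to 4214 CPM with doxycycline, an adjusted p of 0.0675.

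Of 19 genes of H3K9 methylation and HP1, 4 were called (21.1%, against 17.5% of all genes). The 4 include ZNF10, whose reads cannot be told from those of an expressed KRAB fusion. The demethylases KDM4C and KDM4A and the H3K9me3 reader MPHOSPH8 fell. KDM4A lost its call with the offsets for GC content and length and in several fits that left out a library. KDM4C went from 81, 78.0 and 75.1 to 50.9, 47.1 and 48.4 CPM and MPHOSPH8 from 87.2, 89.5 and 81.7 to 56.8, 51.8 and 54.4 CPM. TRIM28, the KRAB co-repressor, was at 501 to 572 CPM without and 470 to 543 CPM with doxycycline. Of 13 genes of DNA methylation, DNMT3B, UHRF1 and ZBTB38 were the lowest of 4 that fell, and 2 rose, MBD3 among them. Of 16 polycomb genes 4 fell, JARID2 from 316, 317 and 292 to 209, 185 and 213 CPM, EZH2 and KDM2B by 0.38 and by 0.31 on the log2 scale, and EED rose. EED lost its call with DESeq2, without a filter, with length-scaled counts and in most fits that left out a library. Of 13 genes around YY1, CTCF and cohesin, 5 fell, ZFP42 (REX1), STAG1 and PDS5B most, with a median of -0.18. With length-scaled counts 2 of the 13 fell. STAG1 and PDS5B lost their calls there and in several fits that left out a library. With the offsets for GC content and length described below, 5 fell and the median was -0.057. Of 8 zinc finger genes that repress SVAs or L1, ZNF611, ZNF649 and ZNF93 fell, and ZNF91 was at 32.5 to 42.4 and 33.2 to 40.1 CPM. With length-scaled counts only 1 of the 8 was called lower, and ZNF611 and ZNF93 lost their calls. ZNF649 and ZNF93 also lost theirs in several fits that left out a library.

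Zinc finger genes as a class leaned down. Of 486 protein-coding genes with a ZNF symbol, 67 (13.8%) fell and 8 (1.65%) rose, and 25.1% of them had a log2 fold change above 0, with a median of -0.11. On chromosome 19, which holds the large ZNF clusters, 37 of 242 fell and 4 rose. Under the offsets for GC content and length described next, 73 of the 486 fell and 13 rose, and the median was -0.077. Solute carriers (SLC) were called at 24.9%, 32 higher and 38 lower of 281. Of 196 TMEM genes 22 rose and 7 fell.

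What share of genes was called depended on expression level. In quintiles of mean expression it went from 6.63% in the lowest (up to 1.66 CPM) through 15.6%, 19.9% and 21.6% to 23.6% in the highest (above 70.3 CPM). The median absolute log2 fold change fell from 0.33 to 0.12 over the same quintiles. By gene type, 18.0% of 15199 protein-coding genes, 10.3% of 368 lncRNA genes and 9.62% of 790 pseudogenes were called. The lncRNA share covers few of them, since 843 of the 18702 annotated lncRNA genes are in the quantified transcript set. Among called lncRNA genes of at least 1 CPM, ENSG00000291149, ENSG00000290786 and ENSG00000290796 rose most, by 1.98, 1.29 and 1.12 on the log2 scale, and APOC1P1, ENSG00000290995 and ENSG00000290712 (DSTNP2) fell most, the first 2 with log2 fold changes of -1.31 and -1.06 and the last from a mean of 15.2 to 7.54 CPM. By chromosome, the share called went from 12.1% on chromosome 4 to 20.7% on chromosome 1.

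Direction followed GC content and length. In the quintile of genes with the lowest GC content in their main transcript (under 41.8%), 140 rose and 326 fell, a median of -0.072, and in the quintile with the highest (over 59.0%), 452 rose and 155 fell, a median of 0.099. In the shortest quintile (up to 1094 nucleotides) 353 rose and 164 fell, and in the longest (from 4519 nucleotides) 130 rose and 430 fell. The same trend divided libraries within a group. In the quintile of highest GC content, the median shift of a gene from its own mean was 0.058, -0.107 and -0.074 in the untreated and 0.103, 0.013 and 0.012 in the treated libraries, so the untreated replicate 1 lay among the treated ones. With offsets for GC content and length fitted in each library, an alternative chosen after seeing the data, 3755 genes (22.9%) were called, 2036 higher and 1719 lower, 2650 of them shared with the 2858. These offsets remove trends with GC content and length by construction. The quintiles of GC content then had 376 higher and 328 lower in the lowest and 416 and 336 in the highest.

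**Figure D2:**
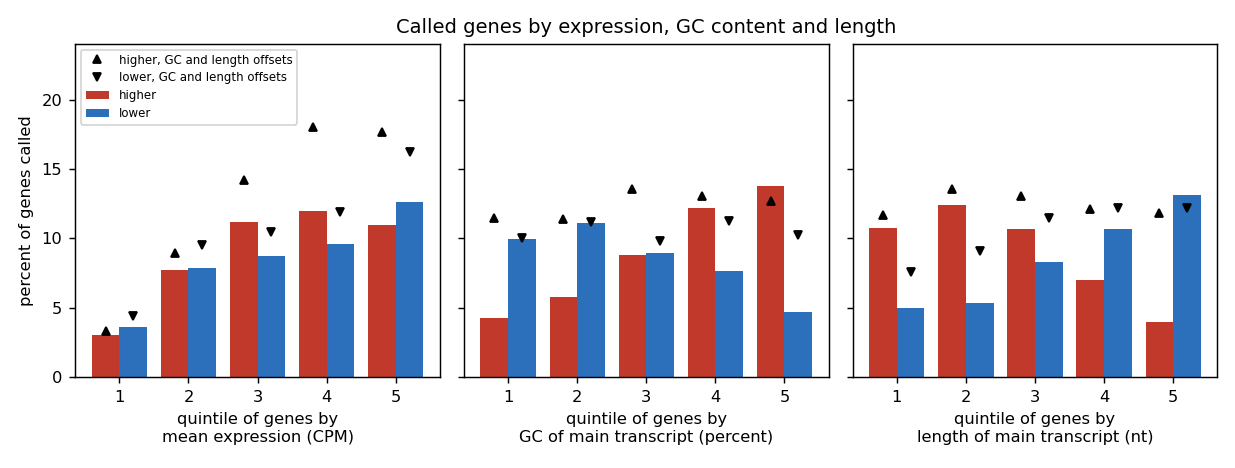
Percent of genes that rose (red bars) or fell (blue bars) with doxycycline in each quintile of genes by mean expression, GC content and length of the main transcript. Black triangles give the same after offsets for GC content and length. Calls climb with expression, rises climb with GC content and falls climb with length. The last 2 slopes flatten under the offsets, which are fitted to remove them.

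These lists held their direction under the offsets. Nuclear respiratory chain subunits then counted 43 rises and 1 fall, endoplasmic reticulum chaperones 14 rises, interferon-stimulated genes 9 rises, integrated stress response genes 22 falls and 2 rises, G1/S genes 23 falls, pluripotency markers 6 falls and replication-dependent histones 17 falls and 1 rise, against 12.4% of all genes higher and 10.5% lower. The adhesion and matrix list went from 2 to 7 rises beside 8 falls.

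The promoters of list members were searched for the elements these pathways are known by. In the RefSeq promoter table (GRCh38.p14), 250 bases before the start were searched on both strands with fixed letters, over 27305 promoters, 12014 of which match a tested gene by symbol. Shares are given over all promoters and then over those of tested genes, from which the list members come. The ER stress response element, searched as CCAAT and CCACG with 9 bases between them, was in 22 promoters (0.0806%, and 0.125% of tested). Of 19 members of the chaperone list 6 held it, 3 of the 10 called (HSPA5, CALR and CRELD2) and 3 of the 9 others (HSP90B1, XBP1 and CANX). The interferon-stimulated response element, GAAA and GAAA with 2 bases between them, was in 3.07% of promoters (2.30% of tested) and in 12 of 19 interferon list members, 4 of the 5 called members and 8 of the 14 others. E2F sites were searched as TTTGGCGC (0.553% of promoters, 0.841% of tested) and TTTCCCGC (1.42%, 2.12% of tested), which were in 4 and 6 of 31 G1/S members, with 3 of 17 and 5 of 17 among those that fell and 1 of 14 for each among the others. The CEBP-ATF response element, TGATGNAA, was in 3.19% of promoters (1.5% of tested) and in 4 of 32 stress response members. These were 2 of the 13 that fell (CHAC1 and ASNS) and 2 of the 19 others (HERPUD1 and ATF3, neither of them called). The heat shock element, searched as GAA, TTC and GAA with 2 bases between each, was in 0.44% of promoters (0.308% of tested). Among 13 list members it was in 0 of the 6 that rose and in 2 of the 7 others (HSPA8 and CHORDC1, neither of them called). The lists were made of known pathway genes, so a high share among members follows from how they were made. It is no result of the response, and called against other members was not tested. These are matches of letters, and binding was not measured here. ASNS, CALR, CRELD2, XBP1, CANX, HERPUD1, ATF3 and CHORDC1 are named for their matches after their values were seen.
The 250 bases before the start of the called member with the largest change that holds each element follow, 5′ to 3′ on the strand of the gene, with the element in capitals. HSPA5 lies on the minus strand (chr9:125241344-125241593), IFI6 on the minus strand (chr1:27672193-27672442), E2F2 on the minus strand (chr1:23531234-23531483), CDT1 on the plus strand (chr16:88803539-88803788) and CHAC1 on the plus strand (chr15:40953221-40953470).
HSPA5: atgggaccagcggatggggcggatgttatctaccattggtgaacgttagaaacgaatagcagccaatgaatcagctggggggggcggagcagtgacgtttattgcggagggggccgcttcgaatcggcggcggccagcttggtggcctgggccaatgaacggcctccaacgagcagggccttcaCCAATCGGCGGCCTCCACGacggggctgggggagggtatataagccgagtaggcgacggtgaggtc
IFI6: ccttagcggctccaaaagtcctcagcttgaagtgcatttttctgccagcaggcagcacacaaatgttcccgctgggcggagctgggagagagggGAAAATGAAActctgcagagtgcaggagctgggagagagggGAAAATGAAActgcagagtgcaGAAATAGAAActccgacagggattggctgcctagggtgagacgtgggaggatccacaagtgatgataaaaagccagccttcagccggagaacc
E2F2: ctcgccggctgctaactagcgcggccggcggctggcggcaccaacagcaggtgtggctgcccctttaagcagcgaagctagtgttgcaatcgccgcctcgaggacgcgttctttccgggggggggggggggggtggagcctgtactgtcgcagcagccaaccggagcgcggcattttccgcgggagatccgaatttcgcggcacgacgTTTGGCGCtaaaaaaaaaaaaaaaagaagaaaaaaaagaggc
CDT1: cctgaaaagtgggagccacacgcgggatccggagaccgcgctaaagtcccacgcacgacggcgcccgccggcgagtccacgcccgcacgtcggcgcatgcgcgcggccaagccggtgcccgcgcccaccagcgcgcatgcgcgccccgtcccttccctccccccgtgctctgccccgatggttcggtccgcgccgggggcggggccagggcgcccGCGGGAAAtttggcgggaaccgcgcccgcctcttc
CHAC1: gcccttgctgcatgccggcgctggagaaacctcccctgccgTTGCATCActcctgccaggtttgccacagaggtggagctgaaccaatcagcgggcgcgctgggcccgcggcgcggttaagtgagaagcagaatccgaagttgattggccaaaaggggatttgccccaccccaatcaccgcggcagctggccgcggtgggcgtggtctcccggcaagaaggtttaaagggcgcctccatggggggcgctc
HSPA5 and IFI6 are promoters of genes that rose, the second with 3 copies of its element, and E2F2, CDT1 and CHAC1 are promoters of genes that fell.

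At the level of transcripts, 66421 were tested and 439 (0.661%) were called, 182 higher and 257 lower, in 374 genes. Of these, 386 belong to genes called themselves and 53 to genes that were not. On simulated data a log2 change of 1 was found in 33.8% of changed transcripts and in 82.0% of changed genes. Protein-coding transcripts were called at 0.906%, those marked for nonsense-mediated decay at 0.346% and retained introns at 0.210%.

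Transcript usage, the percent of a gene's counts on each of its transcripts, changed in 196 of 11629 genes (1.69%) by edgeR's diffSpliceDGE, 59 of them also called for expression and 137 not. On simulated data 60.6% of such calls were false against 10.6% when transcripts under 10% of their gene were left out. With that filter 26 of 8030 genes (0.324%) were called, 22 of them among the 196. Of the 196, 52 had a transcript that moved by 10 percentage points or more and 23 by 20 or more, and 9 genes of at least 10 CPM moved by 20 or more with no overlap. Among these were ZNF10, ZNF585A, PTPRM, RRM2, SH2D5, C2CD2 and FANCD2, and all of the 9 except FANCD2 were also called with the filter.

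The counts per transcript are kallisto's split of shared reads, whose uncertainty is not in the files. ZNF585A, a KRAB zinc finger gene, fell from 74.6, 88.4 and 76.0 to 28.7, 31.8 and 32.9 CPM, and its ZNF585A-204, marked for nonsense-mediated decay, fell from 78.5% ± 0.954 to 45.1% ± 0.798 of its counts while the coding ZNF585A-202 went from 15.9% ± 0.650 to 36.5% ± 1.80. In RRM2, a subunit of ribonucleotide reductase in the G1/S list, the coding RRM2-201 went from 31.5%, 17.6% and 26.1% to 0.959%, 2.24% and 2.40% and the retained intron form RRM2-217 from 36.2% ± 15.8 to 57.5% ± 1.10. PTPRM-202, of a receptor phosphatase, went from 28.4% ± 12.1 to 0.160% ± 0.257, SH2D5-201 from 55.2% ± 6.36 to 20.1% ± 11.3, C2CD2-201 from 22% ± 4.55 to 0.00275% ± 0.00475 and FANCD2-203, a nonsense-mediated decay form of a DNA repair gene, from 16.3% ± 4.43 to 44.6% ± 11.2. PTPRM, SH2D5, C2CD2 and FANCD2 were not called as genes.

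Summed over transcript classes, mitochondrially encoded transcripts held 7.12%, 9.11% and 8.21% of all TPM without and 9.68%, 11% and 10.9% with doxycycline. The groups did not overlap, and the exact two-sided permutation test gave p = 0.1, the smallest that 3 against 3 libraries can give. Nuclear protein-coding transcripts held 76.9% ± 0.828 and 74.8% ± 0.868 (SD, n = 3). Retained introns held 5.75%, 5.71% and 5.71% without and 5.57%, 5.38% and 5.57% with doxycycline in TPM, but 3.69% ± 0.0198 and 3.73% ± 0.0531 of estimated counts, so the direction of that class depends on the unit. Transcripts marked for nonsense-mediated decay held 3.59% ± 0.101 and 3.52% ± 0.0930 of TPM, and their groups overlapped. Of the 14 nonsense-mediated decay factors tested, edgeR called 0, with 1 at an unadjusted p under 0.05, and DESeq2 called 0.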

How the data were processed

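RNA from 3 untreated and 3 doxycycline-treated SCi-NCCIT samples was quantified by the authors, who prepared poly(A)-selected, directional libraries, sequenced them as paired ends and counted reads per transcript with kallisto (version, index and strand setting are not given in the sources used here). The deposited estimated counts and deposited TPM per transcript were used as they are. Transcripts were assigned to GENCODE v44 genes (GRCh37 lift) by Ensembl ID, and 22247 of 188753 transcripts found none and were left out, which kept 95.9% to 96.0% of the counts. The quantified set is mostly coding genes and pseudogenes, without most lncRNAs.

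Each gene's estimated counts were added up over its transcripts, rounded, filtered with filterByExpr, scaled with TMM and tested with edgeR 4.0.16 (glmQLFit and glmQLFTest, R 4.3.3), with Benjamini-Hochberg adjustment over all genes and a threshold of 0.05. The main fit has no covariate. CPM are normalized by TMM library sizes. Transcripts were tested the same way, and usage with diffSpliceDGE and Simes p-values per gene. Alternatives used DESeq2 1.42.0 and limma 3.58.1, other scalings and filters, a replicate block, and each library left out. Class shares were compared by exact permutation tests. The code was tested on simulated data: for treated against untreated libraries, 82.0% of 200 genes with a log2 change of 1 among 16172 were found, and 11.8% of calls were false. Replicates of a group differed by more than sampling noise.

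Genes named are ZNF10, the 8 largest rises and falls of at least 5 CPM without overlap, the 6 largest TPM changes each way, in each list described up to 3 highest and 3 lowest called members and 2 most abundant, 3 lncRNA genes each way, and genes of the usage rule (10 CPM, 20 percentage points, no overlap). Members and lists were chosen with earlier results of these data known, so lists carry counts and medians and no test. Items withheld from this work are not reported here. Deviations of same-numbered libraries from their group means had correlations of 0.29, 0.088 and -0.014, so the numbers were not taken as pairs.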

Additional observations from a re-analysis of the deposited data

How the results depend on the processing

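The count of 2858 genes stayed between 2854 and 3755 with DESeq2, with its size factors in edgeR, without a filter, with at least 10 counts in each sample and with offsets for GC content and length, and was 1878 with length-scaled counts and 976 with an added log2 fold change of at least 0.5. With each library left out it ranged from 1396 to 3259, lowest without treated replicate 2, then 1469 without untreated replicate 2, 1748 without untreated replicate 3 and 1749 without treated replicate 1. Called transcripts, 439 in the main test, were 2708 with DESeq2, 808 with at least 10 counts in each sample, 13 with the replicate block and 33 to 70 without each library. Genes called for usage, 196, were 362 with limma, 26 with the 10% filter, 52 with a change of at least 10 percentage points, 121 with the replicate block and 201 to 318 without each library, so these counts depend on the tool and on each library. The replicate block gave 3316 genes. Of the 3 untreated libraries, only replicate 1 correlated best with its own number among the treated ones, at 0.29 against at most -0.14 with the others. Whether the numbers mark a shared culture or batch was not tested. The difference in the mitochondrial share, 2.37 percentage points of TPM, was 1.04 in estimated counts and 1.86 to 2.86 without each library. For retained introns, -0.22 in TPM became 0.047 in estimated counts and -0.079 without mitochondrial genes, and ranged from -0.25 to -0.16 without each library. For nuclear protein-coding transcripts, -2.14 became -1.08 in estimated counts and -0.18 without mitochondrial genes, and ranged from -2.64 to -1.73 without each library. No setting turned the direction of a named gene. Of 181 named genes that passed the test, 173 stayed called with DESeq2 and 139 with length-scaled counts, and 129 to 169 without each library. Among the lowest-expressed genes, under about 1.66 CPM, 6.63% were called, and the part of depth in this was not tested.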
